A study of Mus musculus with 4 samples.

Results

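The integrated stress response is a programme of gene expression that cells start when nutrients run short, proteins misfold or mitochondria fail. The 9 genes described here are 6 of its transcription factors, Atf4, Atf5, Atf3, Ddit3, Cebpb and Cebpg, with Trib3, whose product restrains ATF4, Nupr1, which encodes a chromatin protein, and Chac1, an enzyme gene downstream of them. They were taken by gene name from the deposited table of 15255 genes, and all 9 were found there, each in a single row. As background, stress kinases phosphorylate the translation factor eIF2, which slows protein synthesis in general but lets the ATF4 protein be made. ATF4 is a basic leucine zipper (bZIP) factor that pairs with C/EBP factors on a composite DNA element and switches on genes for amino acid supply, together with further bZIP factors and with genes that limit the response. Signals from failing mitochondria reach the same pathway, and in haematopoietic stem cells it is known as a route by which stressed cells adapt or are lost. RNA-seq reports RNA only, so phosphorylation of eIF2 and the ATF4 protein were not measured.

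The libraries were made from LSK cells of mouse bone marrow, freshly isolated and washed in PBS. LSK cells lack lineage markers, carry Sca-1 and c-Kit on their surface and include haematopoietic stem and early progenitor cells. Wild-type cells (Afg3l2 WT) were compared with cells labelled Afg3l2 KO, a knockout of a gene for the m-AAA protease, which degrades proteins of the inner mitochondrial membrane; each group had 2 libraries, numbered 1 and 2. Strain, age, sex, the promoter of any Cre and the way the allele was made are not given in the sources used here, nor whether the libraries come from separate mice, so p-values measure only the spread between libraries. Poly(A) RNA was read single-end, and 16522338 to 17271936 reads per library were assigned to genes.

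Afg3l2 RNA stood at 79.6 and 86.0 CPM in the wild-type libraries and at 36.7 and 30.1 CPM in the knockout libraries, a fall by 1.29 on the log2 scale (SE 0.16, limma adjusted p = 0.0115). CPM is here the deposited normalized signal, reads scaled to a normalized library size. The LSK markers Kit, Ly6a, Cd34 and the other 6 of that list were all read. In libraries 1 and 2 their signal summed to 1754 and 996 CPM in wild-type and to 1017 and 663 CPM in knockout cells. Of these 9 markers 0 had a limma adjusted p under 0.05, with a median log2 fold change of -0.27. At that threshold 4 were lower and 0 higher in the authors' deposited table. Cd34 stood at 580 and 305 CPM in wild-type and at 268 and 119 CPM in knockout libraries. Flt3 stood at 398 and 207 against 155 and 101 CPM. Ly6a went the other way, at 57.1 and 61.6 against 95.4 and 76.9 CPM. The libraries stood apart in 2 further ways. Of 2 sex-linked genes, Xist was high in both libraries numbered 2 (889 and 1004 CPM, against 0.113 and 15.7 CPM in those numbered 1, wild-type first). Ddx3y was high in both libraries numbered 1 (83.4 and 72.4 CPM, against 5.04 and 3.50 CPM in those numbered 2). The 7 neutrophil markers summed to 80.2 CPM in wild-type replicate 1, 1727 CPM in wild-type replicate 2, 714 CPM in knockout replicate 1 and 487 CPM in knockout replicate 2. In bulk RNA, fewer cells of a type and less RNA per cell cannot be told apart.

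Of the 9 genes, 8 stood higher in both knockout libraries than in both wild-type libraries, and the exception was Cebpb. Such separation upward was found for 27.2% of all genes. By limma on log2(CPM + 1), with a Benjamini-Hochberg adjustment over all 15255 genes and a threshold of 0.05, 4 of the 9 rose in the knockout (Trib3, Chac1, Nupr1 and Ddit3) and 0 fell, against 1.58% of all genes that rose and 0.839% that fell. At an unadjusted p under 0.05, 8 of the 9 were higher, against 11.0% of all genes. The median log2 fold change was 1.55 over the 9 genes and -0.02 over all genes. Markers of other cells also moved with the groups. Of 8 erythroid markers 4 rose and 0 fell, with sums of 301 and 301 CPM in the wild-type libraries and 459 and 606 CPM in the knockout libraries. Of 6 dendritic cell markers Xcr1 rose and Siglech and Clec10a fell, and the median log2 fold change was -0.15. Their sums of 511 and 873 CPM in wild-type and 1527 and 1678 CPM in knockout libraries were mostly Cd74, a gene looked at after its values were seen, which stood at 276 and 568 CPM against 1285 and 1422 CPM and did not pass (limma adjusted p = 0.0885). Of 6 B cell markers 0 passed, with a median log2 fold change of -1.11, and 4 were lower in the authors' deposited table. Of 5 mast cell and basophil markers Cma1 rose and 0 fell. Mcpt8 went the other way without passing (log2 fold change -1.87, limma adjusted p = 0.209). Of 5 T and NK cell markers 0 passed. The part of all these cells in the values of the 9 genes was not tested.

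**Figure D1:**
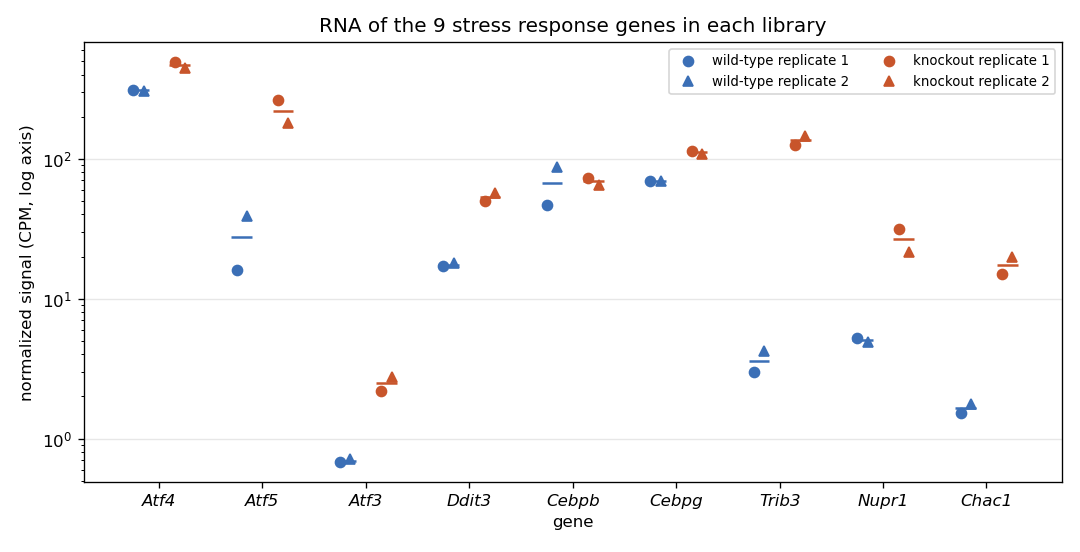
Normalized signal (CPM, log axis) of each of the 9 genes in the 2 wild-type (blue) and 2 knockout (orange) libraries, with circles for replicate 1, triangles for replicate 2 and a line at each group mean. The knockout points lie above the wild-type points for every gene except Cebpb, whose wild-type points lie on both sides of the knockout points.

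Atf4 encodes the central factor of the pathway. It occupies chromosome 15 (GRCm38) between 80255184 and 80257541 and was read at 309 and 306 CPM in the wild-type libraries and at 488 and 444 CPM in the knockout libraries. Its knockout values were thus 1.44 to 1.60 times its wild-type values, whichever libraries were set against each other, and the groups did not overlap. The mean went from 308 ± 2.13 to 466 ± 31.6 CPM (SD, n = 2 libraries in each group, as for all means here), with a log2 fold change of 0.60 ± 0.13 (SE). Atf4 did not pass over all genes (limma adjusted p = 0.0663), and its 95% interval on the log2 scale ran from 0.28 to 0.91. Of 7 alternative fits to all libraries it passed 2, DESeq2 (adjusted p = 0.00106) and limma with the library number as a term (0.0115). Among those it did not pass were edgeR's quasi-likelihood test (0.0840) and limma-voom (0.0715).

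Atf5, on chromosome 7 from 44812256 to 44816658, encodes a relative of ATF4 that has been linked to the response to misfolded proteins in mitochondria. Its signal was 15.9 CPM in wild-type replicate 1 and 39.2 CPM in wild-type replicate 2, and 261 and 180 CPM in knockout replicates 1 and 2. The lowest knockout value was 4.61 times the highest wild-type value, and the highest knockout value was 16.4 times the lowest wild-type value. The wild-type libraries differed from each other more, in proportion, for Atf5 than for any other of the 9 genes. The means were 27.5 ± 16.4 and 221 ± 57.3 CPM, a ratio of 8.02, and the log2 fold change of 3.07 ± 0.51 (SE) had a wide 95% interval, from 1.63 to 4.51. It missed the threshold over all genes (limma adjusted p = 0.0888), although it ranked 15 among 15255 genes by log2 fold change. Of 7 alternative fits to all libraries it passed 1, DESeq2 (adjusted p = 0.000208). Among those it did not pass were edgeR's quasi-likelihood test (0.108), limma-voom (0.0590) and limma with the library number as a term (0.235). With a wild-type library left out, the log2 fold change was 2.44 without replicate 1 and 3.69 without replicate 2. With a knockout library left out, it was 2.80 without replicate 1 and 3.33 without replicate 2. The exons of Atf5 share 82 bases, or 4.11% of their length, with Nup62 and Il4i1 on the opposite strand, and whether the reads kept their strand is not given.

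Among the bZIP genes that ATF4 is known to induce, Ddit3 rose. Ddit3 encodes CHOP, a C/EBP-like factor associated with cell death under lasting stress, and lies on chromosome 10 from 127290774 to 127296288. It was read at 17.03 and 17.98 CPM in the wild-type libraries and at 49.5 and 57.3 CPM in the knockout libraries, so that each knockout library held 2.76 to 3.37 times the signal of either wild-type library. The log2 fold change was 1.55 ± 0.17 (SE, limma adjusted p = 0.00879). The exons of Ddit3 share 68 bases, 3.97% of their length, with the methionyl-tRNA synthetase gene Mars1 on the opposite strand, which itself stood at 75.5 and 115 CPM in the wild-type libraries and at 163 and 211 CPM in the knockout libraries. They also share 105 bases, 6.13% of their length, with a further annotated gene of the name Ddit3 on the same strand, of which no value was analysed here. The part of those shared bases in the result was not tested.

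Atf3, which encodes a stress-induced factor that represses or activates genes according to its partner, was the least abundant of the 9. It lies on chromosome 1 from 191170296 to 191218039 and rested on 12 reads in each wild-type library and on 37 and 46 reads in the knockout libraries. In CPM these are 0.679 and 0.712 against 2.20 and 2.78. With exact 95% Poisson intervals, which cover counting error only, the higher wild-type value ran from 0.368 to 1.24 CPM and the lower knockout value from 1.55 to 3.03 CPM. The groups did not overlap, but Atf3 did not pass (log2 fold change 1.04 ± 0.30 (SE), limma adjusted p = 0.124). The pseudocount of 1 CPM shortens that log2 fold change, which was 1.83 by edgeR's quasi-likelihood test on the recovered reads, with an adjusted p = 0.150.

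Of the C/EBP partners, Cebpg, on chromosome 7 from 35046422 to 35056573, encodes a short C/EBP protein without a strong activation domain that pairs with ATF4 on amino acid genes. It was read at 69.9 and 69.2 CPM in the wild-type and at 114 and 109 CPM in the knockout libraries. Its libraries agreed closely within each group, and each knockout library held 1.56 to 1.65 times the signal of either wild-type library. Cebpg came to a limma adjusted p = 0.0504, just above the threshold, with a log2 fold change of 0.67 ± 0.13 (SE). Of 7 alternative fits to all libraries it passed 4. They were median-of-ratios scaling (adjusted p = 0.0473), a stricter filter on low values (0.0467), DESeq2 (0.00126) and limma with the library number as a term (0.0114). It did not pass with a pseudocount of 0.1 (0.0514), by edgeR's quasi-likelihood test (0.0550) or by limma-voom (0.0600).

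Cebpb encodes a C/EBP factor of myeloid cells and of emergency granulocyte production, and lies on chromosome 2 from 167688915 to 167690418. Its signal was 47.1 CPM in wild-type replicate 1, 87.0 CPM in wild-type replicate 2, 72.9 CPM in knockout replicate 1 and 64.9 CPM in knockout replicate 2. Both knockout values fell between the wild-type values. The log2 fold change was 0.10 ± 0.29 (SE, limma adjusted p = 0.874), with a 95% interval from -0.60 to 0.81, which does not leave out a change of the size fitted for Atf4 or Cebpg. Without wild-type replicate 1 it turned to -0.33 (adjusted p = 0.438), and without wild-type replicate 2 it was 0.54 (adjusted p = 0.126). The 4 libraries had the same order for Cebpb as for the sum of the neutrophil markers given above. The sums of the 8 monocyte and macrophage markers, 290, 806, 429 and 309 CPM in the same libraries, had that order too. Ly6c2 made up most of each of these sums, at 204, 636, 229 and 225 CPM, and was the only one of the 8 with that order. None of these 15 markers was at 0 in all libraries, and 0 of the neutrophil markers passed (limma, 0 at an unadjusted p under 0.05 and 0 in the authors' deposited table). Of the monocyte and macrophage markers Cx3cr1 and Csf1r fell. The part of such cells in the Cebpb values was not tested. The single exon of Cebpb also shares 312 bases, 20.7% of its length, with Tmem189 on the opposite strand, which was read at 44.8 and 44.7 CPM in wild-type and at 34.3 and 29.5 CPM in knockout libraries.

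**Figure D2:**
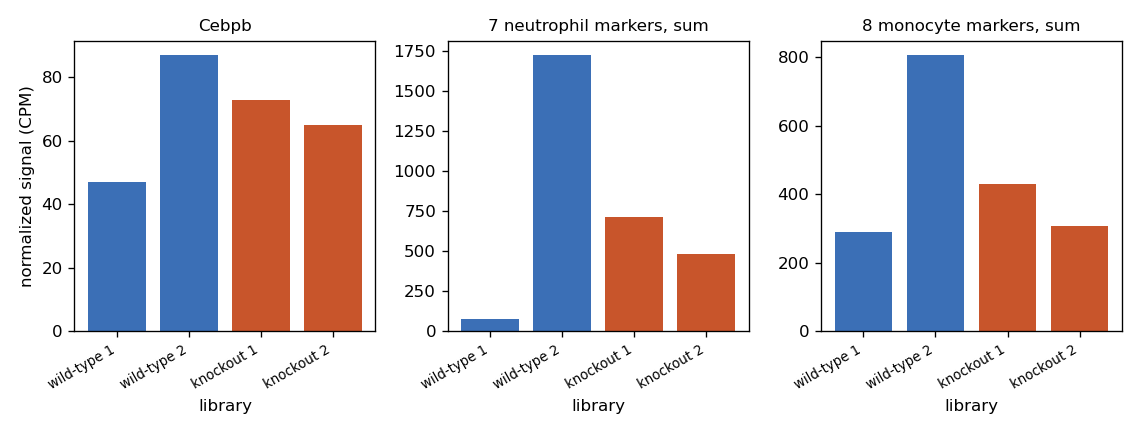
Normalized signal (CPM, axes from 0) in each of the 4 libraries for Cebpb, for the sum of 7 neutrophil markers and for the sum of 8 monocyte and macrophage markers, with wild-type in blue and knockout in orange. In all 3 panels wild-type replicate 2 is highest and wild-type replicate 1 lowest, with knockout replicate 1 above knockout replicate 2. Most of the monocyte and macrophage sum is Ly6c2 in each library.

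Trib3 showed the largest log2 fold change of the 9 genes and the smallest p of all 15255 genes. It encodes a pseudokinase that is induced by ATF4 and CHOP and in turn binds and restrains ATF4, and lies on chromosome 2 from 152337422 to 152344032. It rested on 53 and 71 reads in the wild-type libraries, or 2.999 and 4.21 CPM, and on 2097 and 2426 reads in the knockout libraries, or 125 and 146 CPM. Each knockout library held 29.6 to 48.8 times the signal of either wild-type library. The log2 fold change of 4.90 ± 0.21 (SE, limma adjusted p = 0.000353) had a 95% interval from 4.41 to 5.38.

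Nupr1, on chromosome 7 from 126623249 to 126630861, encodes a small chromatin protein whose gene is induced by many stresses, ATF4 being among its known activators. It was read at 5.26 and 4.92 CPM in the wild-type libraries and at 31.6 and 21.5 CPM in the knockout libraries. The knockout libraries were 4.08 to 6.42 times the wild-type libraries, and they differed from each other more than the wild-type libraries did. Nupr1 rose with a log2 fold change of 2.15 ± 0.27 (SE, limma adjusted p = 0.0118).

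Chac1 encodes an enzyme that breaks down glutathione in the cytosol and is a widely used readout of the ATF4, ATF3 and CHOP branch. It lies on chromosome 2 from 119351229 to 119354381. It rested on 27 and 30 reads in the wild-type libraries, or 1.53 and 1.78 CPM, and on 252 and 328 reads in the knockout libraries, or 15.0 and 19.8 CPM. The ratio of the means was 10.5, and each knockout library held 8.41 to 12.95 times the signal of either wild-type library. Chac1 rose with a log2 fold change of 2.78 ± 0.30 (SE, limma adjusted p = 0.00879). The pseudocount of 1 CPM shortens that value, as it does for Trib3 and Nupr1. By edgeR's quasi-likelihood test on the recovered reads, the log2 fold change was 3.39 for Chac1, 5.23 for Trib3 and 2.38 for Nupr1. Atf5 was at 3.01 there, below Chac1. The constitutive paralog Chac2 was read at 6.79 and 6.11 CPM in wild-type and at 8.14 and 8.45 CPM in knockout libraries. Its log2 fold change of 0.32 did not pass (limma adjusted p = 0.545).

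**Figure D3:**
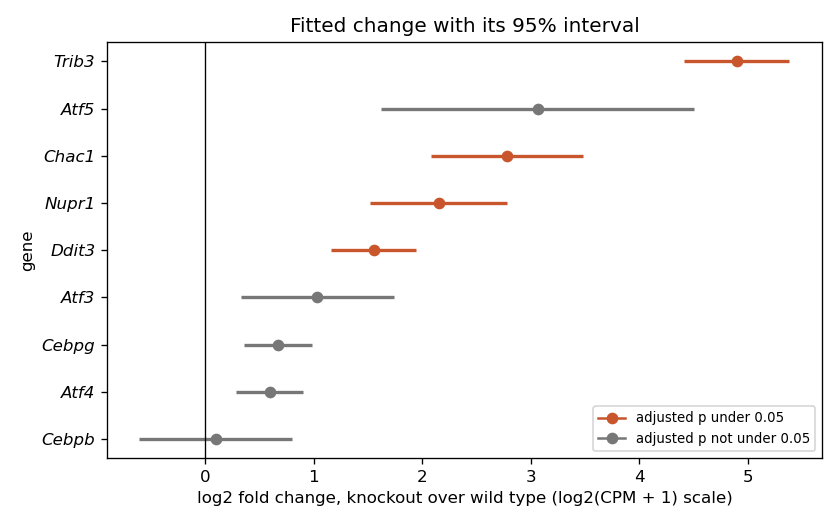
Log2 fold change of knockout over wild type on the log2(CPM + 1) scale for each of the 9 genes (points) with the 95% interval of the limma fit (lines), ordered by size. Trib3, Chac1, Nupr1 and Ddit3, in orange, passed at an adjusted p under 0.05. Atf5 has the widest interval and lies second on this scale, on which the pseudocount shortens the value of Chac1. Cebpb alone has an interval that includes 0.

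ATF4 with a C/EBP partner is known to bind a composite element, the C/EBP-ATF response element (CARE), so the start regions of the 9 genes were searched for the letters TGATGNAA on both strands (TTNCATCA on the other). The windows were RefSeq's, on GRCm38.p6, with 250 bases before and 50 after each start, 10 windows for the 9 genes because Atf5 has 2. A RefSeq start can differ from the end of the GENCODE span given above. For Atf3 and Nupr1, on the minus strand, it lies inside the spans, which end at 191218039 and 126630861. For Trib3 it lies outside the span, which ends at 152344032, as does the match given below, at 152344039 to 152344046. Matches were found at 4 of the 9 genes, Atf3, Nupr1, Chac1 and Trib3, of which Atf3 did not pass the test and the others rose. Over all 32851 mouse windows of the same length, 3.97% hold the letters. The match reads TTGCATCA at Atf3, Nupr1 and Chac1, at 110, 110 and 193 bases before the start, and TTACATCA at Trib3, with its first base at position 15 after the start. They are shown because this pattern, in capitals, recurs at genes of one pathway; each line runs 5′ to 3′ on the strand of its gene. For Atf3, Nupr1 and Chac1 they are the 250 bases before the start, at chr1:191183334-191183583 (minus strand), chr7:126625471-126625720 (minus strand) and chr2:119350992-119351241 (plus strand), and for Trib3 they are 30 bases around the match, at chr2:152344028-152344057 (minus strand).
Atf3: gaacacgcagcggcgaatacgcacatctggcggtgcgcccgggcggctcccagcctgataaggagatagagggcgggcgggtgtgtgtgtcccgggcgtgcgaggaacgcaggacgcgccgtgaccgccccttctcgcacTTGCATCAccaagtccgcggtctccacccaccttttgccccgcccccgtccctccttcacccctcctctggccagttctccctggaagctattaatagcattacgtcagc
Nupr1: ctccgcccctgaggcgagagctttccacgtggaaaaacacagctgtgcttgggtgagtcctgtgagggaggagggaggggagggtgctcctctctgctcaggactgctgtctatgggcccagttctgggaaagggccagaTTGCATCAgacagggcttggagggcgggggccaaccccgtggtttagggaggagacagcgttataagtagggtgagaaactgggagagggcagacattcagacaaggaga
Chac1: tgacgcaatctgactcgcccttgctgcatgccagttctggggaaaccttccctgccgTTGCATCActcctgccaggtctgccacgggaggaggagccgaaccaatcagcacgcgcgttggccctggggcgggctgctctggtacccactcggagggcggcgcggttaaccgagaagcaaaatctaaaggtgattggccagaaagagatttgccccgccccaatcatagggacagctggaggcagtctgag
Trib3: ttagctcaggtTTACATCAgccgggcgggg
The letters do not occur in the windows of Atf4, Atf5, Ddit3, Cebpb and Cebpg, which says nothing of elements farther away. The palindromic CRE TGACGTCA (1.79% of all windows) and the C/EBP letters TTGCNNAA or TTNNGCAA (10.8%) occur in 0 of the 10 windows. The CCAAT box, CCAAT or ATTGG, occurs at 6 of the 9 genes and in 37.4% of all windows, among them 3 times at Chac1, at 150, 59 and 32 bases before the start. A match of letters is a description of the sequence and was not tested for binding.

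To set the genes beside each other, the signal was divided by the length of the merged exons of GENCODE M21. On that scale (CPM per kb) Atf4 was highest in both groups, at 130 ± 0.902 in wild-type and 198 ± 13.4 in knockout cells, and Atf3 lowest, at 0.323 ± 0.0108 and 1.15 ± 0.190. In wild-type cells Atf4 was followed by Cebpb (44.6), Atf5 (13.8), Cebpg (12.4), Ddit3 (10.2), Nupr1 (2.03), Trib3 (1.70) and Chac1 (1.01). The ranges of the neighbours Atf5 and Cebpg overlapped, as did those of Nupr1 and Trib3. In knockout cells Atf4 was followed by Atf5 (111), Trib3 (63.8), Cebpb (45.8), Ddit3 (31.2), Cebpg (19.8), Chac1 (10.6) and Nupr1 (10.6). There the ranges of Chac1 and Nupr1 overlapped, and other neighbours did not. Trib3 was thus number 7 in this order in wild-type cells and number 3 in knockout cells.

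Ratios between the genes within a library do not depend on the scaling of libraries. Per kb, Atf5 RNA came to 0.0609 and 0.151 of Atf4 RNA in the wild-type libraries and to 0.633 and 0.481 in the knockout libraries. Trib3 came to 0.0108 and 0.0153 of Atf4 in the wild-type libraries and to 0.283 and 0.366 in the knockout libraries. Cebpg stayed near the same share of Atf4, at 0.0948 and 0.0949 in the wild-type libraries and at 0.0979 and 0.103 in the knockout libraries. The 9 genes together summed to 470 and 531 CPM in wild-type and to 1159 and 1045 CPM in knockout libraries, of which Atf4 took 65.8% and 57.6% of the wild-type sums and 42.1% and 42.4% of the knockout sums. These ratios are descriptions, and with 2 libraries against 2 an exact permutation test of a single value could not reach the threshold.

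For each gene that rose, the genes of most like profile were found by the Euclidean distance over the 4 libraries, on log2(CPM + 1) less the wild-type mean, among 9060 protein-coding genes that averaged at least 10 CPM. That average was over all 4 libraries, so genes low in wild type, among them Slc7a3 and Stc2, entered only through their knockout values. Nearest to Ddit3 were Aldh18a1, an enzyme of proline synthesis (distance 0.145), the mitochondrial carrier Slc25a33 (0.149) and Sphk1, a sphingosine kinase (0.184). Nearest to Chac1 were Grb10, an adaptor of growth factor receptors (0.223), Sesn2 (0.305) and Asns (0.447). Nearest to Trib3 were Slc7a3, a transporter of cationic amino acids (0.522), Stc2 (1.01) and Sfrp4 (1.17), and nearest to Nupr1 were Glrp1 (0.536), Cox6a2 (0.546) and Septin3 (0.580). With 4 libraries the distance orders genes mainly by the size of their difference between the groups.

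The lists of the wider pathway place the 9 genes among their inputs and outputs. These lists were chosen with earlier results of these data known. Upstream, among 18 measured genes of the eIF2 cycle, 1 rose and 0 fell, with a median log2 fold change of 0.34. At an unadjusted p under 0.05, 8 were higher and 1 lower, and 5 were higher and 1 lower in the authors' deposited table. The gene that rose was Eif2s2, the beta subunit of eIF2, from 171 and 177 CPM to 276 and 315 CPM (limma adjusted p = 0.0362). The 4 eIF2 kinase genes Eif2ak1, Eif2ak2, Eif2ak3 and Eif2ak4 had log2 fold changes of 0.10, 0.51, -0.13 and -0.05, and none passed. Oma1 and Dele1, which carry a mitochondrial stress signal to an eIF2 kinase, did not pass either, with log2 fold changes of -0.32 and 0.10. Ppp1r15a encodes GADD34, the stress-induced subunit of the eIF2 phosphatase and itself a known target of ATF4. It was read at 136 and 72.7 CPM in wild-type and at 39.4 and 39.8 CPM in knockout libraries, opposite in sign to Trib3; its log2 fold change of -1.31 missed the threshold (limma adjusted p = 0.0850), while the authors' deposited table gives an adjusted p = 0.000202. The kinase, Oma1, Dele1 and Ppp1r15a values were chosen for their place in the pathway after they were seen.

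Downstream, 17 of 21 measured amino acid and folate genes that ATF4 is known to drive rose and 0 fell, with a median log2 fold change of 1.75. Slc7a3 was listed at 0 and at 0.712 CPM in the wild-type libraries and at 37.5 and 55.9 CPM in the knockout libraries. Aldh1l2 rose from 0.566 and 0.771 CPM to 21.4 and 28.5 CPM, and Slc1a4, a transporter of small neutral amino acids, from 4.41 and 7.12 CPM to 54.3 and 64.2 CPM. Of 20 measured cytosolic aminoacyl-tRNA synthetase genes 11 rose and 0 fell, with a median of 0.90, among them Sars, Lars, Gars and Cars at 2.18, 2.50, 2.57 and 2.17 times their wild-type means. Of 16 other outputs of ATF4 and CHOP 6 rose and 0 fell, with a median of 0.89. Sesn2, an inhibitor of mTORC1 signalling, rose from 7.98 and 12.1 CPM to 61.8 and 88.9 CPM, and Eif4ebp1, which restrains cap-dependent translation, from 64.2 and 65.0 CPM to 138 and 139 CPM.

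Neighbouring stress programmes were counted in the same way. Of 21 genes of the endoplasmic reticulum unfolded protein response, which also feeds into Atf4 and Ddit3, 0 passed limma (3 had an unadjusted p under 0.05, all higher, and 2 were higher in the authors' deposited table), and the median was 0.02. Herpud1 and Sel1l, the genes of smallest p there, had log2 fold changes of 0.54 and 0.56. Of 12 mitochondrial chaperones and proteases, a programme to which ATF5 has been linked, 2 rose, Hspa9 and Lonp1, and 0 fell, with a median of 0.42. Of 10 genes of glutathione handling, beside Chac1, 2 rose and 0 fell, with a median of 0.14. They were Slc7a11, the cystine transporter, from 0.566 and 2.02 CPM to 21.1 and 22.6 CPM, and Gclm, for the modifier subunit of glutamate-cysteine ligase, from 107 and 96.1 CPM to 174 and 227 CPM.

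**Figure D4:**
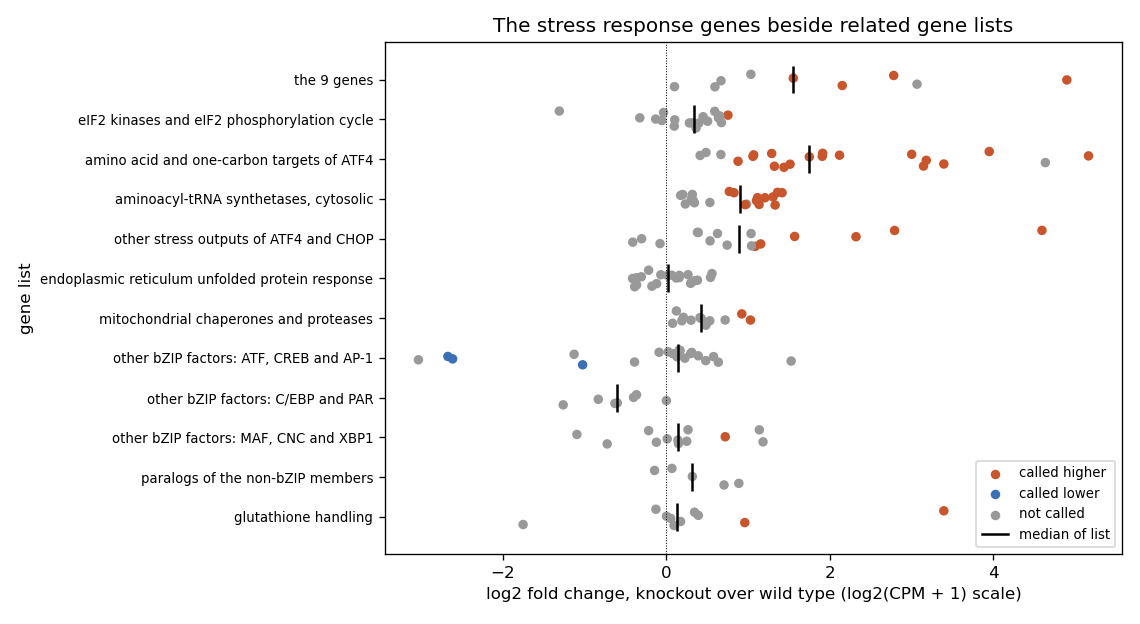
Log2 fold change of knockout over wild type (log2(CPM + 1) scale) for every measured gene of the 9 and of each related list, 1 point per gene, in orange where called higher, blue where called lower and grey where not called, with a black line at each list's median. The amino acid list has its median at 1.75, beside 1.55 for the 9 genes, while the endoplasmic reticulum list centres near 0 and the bZIP lists hold the 3 genes called lower.

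Among 39 other measured bZIP genes 1 rose and 3 fell, with a median log2 fold change of 0.02, beside 1 that rose and 0 that fell among the 6 bZIP genes described here, whose median was 0.85. Both knockout libraries lay above both wild-type libraries for 14 of the 39 and below them for 9, beside 27.2% and 26.9% of all genes. The gene that rose was Nfe2l1, a regulator of proteasome genes, from 89.4 and 101 CPM to 158 and 157 CPM (limma adjusted p = 0.0434). The genes that fell were Fos, Jun and Junb of the AP-1 family, to which ATF3 can bind; Jun went from 529 and 299.9 CPM to 69.6 and 54.9 CPM. The closest relatives of Cebpb, Cebpa and Cebpd, had log2 fold changes of -1.26 (adjusted p = 0.0650) and -0.63 (0.475), and of the 7 C/EBP and PAR genes 0 passed by limma, with 1 lower at an unadjusted p under 0.05. The Trib3 relatives Trib1 and Trib2 did not pass, at log2 fold changes of 0.07 and 0.89, nor did Nupr1l, a relative of Nupr1, at -0.14. These relatives were chosen for their kinship after their values were seen.

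In the authors' deposited table, 8 of the 9 genes were higher at an adjusted p under 0.05, all except Cebpb, against 6.04% of all genes; 0 were lower, against 5.47%. Its adjusted p was 7.75e-101 for Trib3, 0.0169 for Atf4, 0.00297 for Atf5, 0.00344 for Cebpg and 0.0357 for Atf3, and its log2 fold change for Trib3 was 5.24. That table comes from a likelihood ratio test with the library number as a term.

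Most of the 4 calls were lost when a knockout library was left out. Without knockout replicate 2, 0 of the 9 genes and 0 of all genes passed limma, with 7 of the 9 and 1209 of all genes at an unadjusted p under 0.05, and the adjusted p was 0.0601 for Trib3, 0.150 for Nupr1, 0.161 for Ddit3 and 0.168 for Chac1. Without knockout replicate 1, Trib3 passed (adjusted p = 0.0266) and Ddit3, Chac1 and Nupr1 did not (0.0626, 0.0661 and 0.115). Without either wild-type library the 4 calls held. The fold changes themselves moved less: over the 4 fits that each left out a library, the log2 fold change ran from 4.71 to 5.09 for Trib3, from 2.59 to 2.97 for Chac1, from 1.88 to 2.42 for Nupr1 and from 1.45 to 1.66 for Ddit3.

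**Figure D5:**
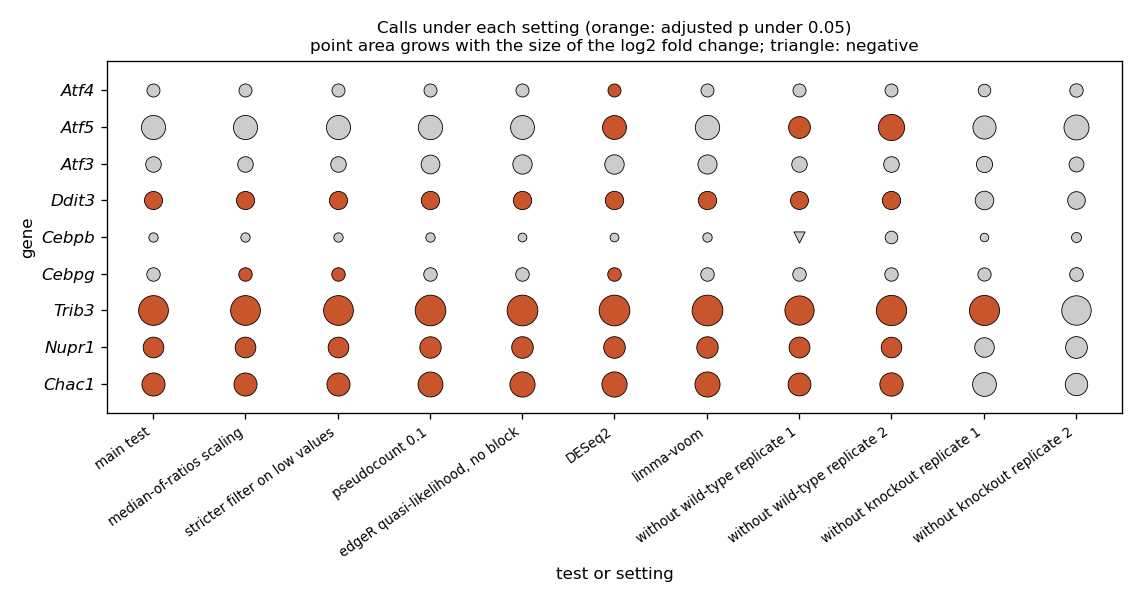
Each of the 9 genes (vertical axis) under the main test and 10 of the alternatives (horizontal axis), in orange where the adjusted p was under 0.05 and grey where not; the point area grows with the size of the log2 fold change, and a triangle marks a negative one. Ddit3, Trib3, Nupr1 and Chac1 are orange under every setting drawn here that used all libraries, and the only triangle is Cebpb without wild-type replicate 1. The alternative not drawn is limma with the library number as a term. It called 6 of the 9 genes, adding Atf4 (adjusted p = 0.0115) and Cebpg (0.0114).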

How the data were processed

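The submitters' processing notes name the aligner STAR 2.7.10a, the counter featureCounts 2.0.1 and the build GRCm38.p6; annotation release, counting settings and strand use are not given in the sources used here. The deposited table holds a normalized signal per library, named CPM in its header. Whole reads were recovered as multiples of the smallest value above 0 in each column, for 100% of values (within 0.01 of a whole number), and scaling those reads by edgeR's TMM factors gave the deposited values back. The authors also deposited a log2 fold change, a likelihood ratio (a score per gene), a p-value and an adjusted p-value. An edgeR 4.0.16 likelihood ratio fit with the library number as a term came within 3.63e-08 of every deposited log2 fold change.

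Because the values are normalized, the main test was limma's moderated test (version 3.58.1, R 4.3.3), applied to log2(CPM + 1) over 15255 genes, two-sided, with trend and robust moderation. All of these genes passed edgeR's filterByExpr, so low genes had gone before deposit. A gene rose or fell at a Benjamini-Hochberg adjusted p under 0.05. EdgeR, DESeq2 1.42.0 and limma-voom on recovered reads were alternatives, and the tests were tried on simulated data. The genes and lists were chosen with earlier results of these data known. Of list genes, up to 4 called genes of smallest p are named, or up to 2 where none was called; others were chosen after their values were seen. One list gene, Mars, stands in the deposited table as Mars1 and was matched by its gene ID. Gene positions are GENCODE M21's, and the starts of the searched windows are RefSeq's. Transcripts of other genes were searched for stretches of 150 bases or more at 95% identity or more; the only one was that of Tmem189 with Cebpb.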

Additional observations from a re-analysis of the deposited data

How the results depend on the processing

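Of the 9 genes, Ddit3, Trib3, Nupr1 and Chac1 kept their direction and their call under all 7 alternatives that used every library, and Atf3 and Cebpb passed under none of them. Over these alternatives the adjusted p ran from 0.00106 to 0.0840 for Atf4, from 0.000208 to 0.235 for Atf5 and from 0.00126 to 0.0600 for Cebpg. Leaving out wild-type replicate 1 reversed Cebpb (log2 fold change -0.33); its other values with a library left out reached 0.54. DESeq2 called 7 of the 9 genes and 1214 of all genes, against 4 and 369; the cause was not tested. With a library left out, the number called ran from 0 to 5 of the 9 genes, from 0 to 62 of the genes in the pathway lists, against 42 with all libraries, and from 0 to 1068 of all genes; the fit then gives a lone library the spread seen between the other 2. The library numbers are shared by the groups, and the deposited comparison has the word paired in its name, but the labels do not say what a number marks. The authors' own fit has the number as a term, and the sex-linked genes Xist and Ddx3y separate the numbers in both groups, as given above. The main test has no such term, so differences between the numbers count there as spread within the groups. The deviations of same-numbered libraries had a correlation across 13795 genes of 0.286. With the number as a replicate block, limma called 6 of the 9 genes, adding Atf4 (adjusted p = 0.0115) and Cebpg (0.0114), 69 genes of the pathway lists and 1779 of all genes. The depth limits Atf3 most, which rests on 12 reads in each wild-type library.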
